A study of Mus musculus with 35 samples.

Results

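Lipid-associated macrophages are tissue macrophages that gather where fat cells store, release or lose lipid, and they are recognised by a shared set of genes for sensing, engulfing and degrading lipid. TREM2 is a surface receptor for lipids and lipoproteins that signals through the adaptor DAP12, and its engagement is known to switch on much of the rest of the set. Here a set of such genes was followed through a time course of cold in interscapular brown adipose tissue (iBAT), the depot of heat-producing brown fat between the shoulder blades.

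The set held 10 genes, chosen by name from the 55421 genes of the count table: Trem2, Tyrobp, Gpnmb, Spp1, Lgals3, Cd9, Fabp5, Mmp12, Atp6v0d2 and Itgax. All 10 were found in the table, and 6 of them had at least 1 count in every library. The genes were chosen by name and with earlier results of these data known, and the study had itself singled out Lgals3, Gpnmb and Trem2 in these libraries, so the direction of those 3 genes is not independent evidence. The tissue came from male C57BL/6J mice aged 9 to 10 weeks, with no transgene and no drug. Of 35 mice, 5 stayed at room temperature (24 °C, colony housing) and 5 each spent 6 hours, 1, 2, 3, 4 or 5 days at 6 °C. All cold mice were housed singly and without nesting material, so temperature and housing cannot be told apart. Each library was made from 1 fat pad of 1 mouse and read at the 3' ends of transcripts, at a depth of 3846016 to 6047247 counts. Levels are given as raw counts or as CPM, a count scaled to the size of its library, after TMM scaling of the library sizes, and 1 read is worth between 0.165 and 0.260 CPM.

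All cold groups were compared with the same 5 controls. The main test was edgeR's quasi-likelihood test, fitted for each duration over every gene with enough counts, with Benjamini-Hochberg adjusted p below 0.05 as the threshold ("called"). Trem2, Spp1, Atp6v0d2 and Itgax had too few counts for that test in every comparison with the controls, and Mmp12 passed the filter only after 3 and 5 days, where it was high. Every gene with at least 10 counts was therefore also tested on log2 CPM by exact permutation, two-sided, over the 252 ways of splitting 5 against 5 mice. Its smallest possible p is 0.00794, which is reached when the 2 groups do not overlap.

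Fabp5 and Lgals3 stood above every control in all 5 mice after 3, 4 and 5 days of cold, and Gpnmb, Mmp12, Spp1, Trem2 and Atp6v0d2 were high in some mice of each late group and near control level in others. Cd9 was never called. From 2 days on, 8 of the 10 genes, grouped after seeing the values, varied together from mouse to mouse within a duration. RNA was taken from whole tissue, so more cells of a type and more RNA per cell cannot be told apart in any of these values.

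Before the values, the promoters are shown for Gpnmb, which had one of the largest changes, and for Spp1, Mmp12 and Itgax, which held the matches described next. The windows are the 250 bases upstream of the first RefSeq transcription start, on build GRCm38.p6 and in the direction of the gene, at chr6:49036268-49036517 for Gpnmb (plus strand), chr5:104434861-104435110 for Spp1 (plus strand), chr9:7344147-7344396 for Mmp12 (plus strand) and chr7:128129300-128129549 for Itgax (plus strand). Capitals mark a match to one of 4 short motifs on either strand: TGACTCA (bound by AP-1), GAGGAAGT (a PU.1-type ETS site, PU.1 being the master factor of macrophages), CACGTG and CATGTG (E-boxes, the former of the kind bound by the lysosomal regulators of the MiT/TFE family).
Gpnmb: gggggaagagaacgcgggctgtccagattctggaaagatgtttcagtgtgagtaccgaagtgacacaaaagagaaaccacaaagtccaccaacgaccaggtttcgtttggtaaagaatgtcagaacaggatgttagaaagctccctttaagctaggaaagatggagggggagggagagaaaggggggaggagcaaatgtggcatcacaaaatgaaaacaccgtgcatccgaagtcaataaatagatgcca
Spp1: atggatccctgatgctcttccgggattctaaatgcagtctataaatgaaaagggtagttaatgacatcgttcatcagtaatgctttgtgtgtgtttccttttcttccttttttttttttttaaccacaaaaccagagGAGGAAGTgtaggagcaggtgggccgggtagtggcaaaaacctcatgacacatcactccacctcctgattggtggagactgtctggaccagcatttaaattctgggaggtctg
Mmp12: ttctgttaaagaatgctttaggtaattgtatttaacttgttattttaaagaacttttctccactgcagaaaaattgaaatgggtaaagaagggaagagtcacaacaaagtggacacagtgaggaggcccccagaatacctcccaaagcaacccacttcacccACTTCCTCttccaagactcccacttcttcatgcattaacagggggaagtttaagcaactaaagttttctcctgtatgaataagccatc
Itgax: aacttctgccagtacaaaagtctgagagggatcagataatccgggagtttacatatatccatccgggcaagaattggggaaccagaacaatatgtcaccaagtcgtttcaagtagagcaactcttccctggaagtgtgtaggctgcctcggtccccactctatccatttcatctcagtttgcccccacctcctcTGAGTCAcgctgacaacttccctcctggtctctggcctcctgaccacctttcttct

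RefSeq windows were matched for 7 of the 10 genes (Trem2, Gpnmb, Spp1, Lgals3, Cd9, Mmp12 and Itgax), with a second start for Spp1 and for Mmp12, so 9 windows in all; Tyrobp, Fabp5 and Atp6v0d2 had no entry. The GAGGAAGT motif was found in the first Spp1 window, 113 to 106 bases upstream of the start, and on the reverse strand in the first Mmp12 window, 88 to 81 bases upstream. Among all 32851 windows of this length, 2.44% held it. The AP-1 motif was found, as TGAGTCA, in the Itgax window at 56 to 50 bases and in the window of the second Mmp12 start at 44 to 38 bases upstream, against 4.46% of all windows. CATGTG was present in the Cd9 window and in that second Mmp12 window (12.3% of all windows), and CACGTG in none of the 9 (6.02% of all windows). No match overlapped another. The Gpnmb window held none of the 4 motifs. These are matches of letters and were not tested as binding sites.

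One control, room temperature replicate 5, stood apart in macrophage genes. Its summed level over 14 general macrophage genes (Adgre1, Csf1r, Cd68, C1qa and others) was 268 CPM, against 92.6 to 136 CPM in the other 4 controls, and Adgre1, a surface receptor that marks macrophages, had 100 counts in it. The same mouse was the highest control for Trem2, Tyrobp, Gpnmb, Lgals3, Mmp12 and Itgax. Values without it are given beside the results for these genes.

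Trem2, the lipid receptor (chromosome 17, 48346401 to 48354147, plus strand), had 1, 0, 0, 3 and 5 counts in the controls, 1, 1, 0, 0 and 0 after 6 hours and 0, 0, 1, 1 and 7 after 1 day. It had 41, 18, 2, 1 and 1 counts after 2 days, 28, 1, 11, 13 and 6 by day 3, 19, 27, 22, 0 and 4 by day 4 and 11, 1, 0, 8 and 11 by day 5. Each late group thus held mice with more counts than any control and at least 1 mouse within the range of the controls. After 3 days, 4 of 5 mice were above all controls, with a difference of 1.78 on the log2 CPM scale (exact permutation p = 0.0238, adjusted p = 0.0949 over all genes), which did not pass the threshold. Nor did it pass after 4 days (1.66, exact p = 0.0952, adjusted p = 0.207). Without control replicate 5 these differences were 2.04 and 1.92.

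Tyrobp encodes DAP12, the adaptor through which TREM2 and several other myeloid receptors signal (chromosome 7, 30413760 to 30417585, plus strand). It was at 4.25, 1.55, 3.26, 1.64 and 10.2 CPM in the controls and at 22.4, 5.94, 8.19, 17.7 and 6.94 CPM after 3 days. The groups overlapped: only 2 mice after 3 days exceeded control replicate 5, while all 5 exceeded the other 4 controls. Tyrobp rose by a log2 fold change of 1.55 after 3 days (standard error 0.46, edgeR adjusted p = 0.0161), 1.40 after 4 days (adjusted p = 0.0219) and 1.28 after 5 days (adjusted p = 0.0234) by edgeR's quasi-likelihood test. The exact permutation test called none of the 3 (adjusted p = 0.131, 0.117 and 0.143), DESeq2 did not call the rise after 4 days, and library size only did not call that after 5 days. Without control replicate 5 the values were 2.21, 2.07 and 1.95, whereas removing single mice ended these calls in 1, 4 and 5 of 10 cases; after 3 days it was cold 3 days replicate 1 that did so, leaving 1.23. Levels after 6 hours (1.05 to 3.70 CPM) and 1 day (3.16 to 5.97 CPM) overlapped those of the controls.

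Gpnmb, a lysosomal and cell-surface glycoprotein of lipid-laden macrophages (chromosome 6, 49036546 to 49070929, plus strand), varied widely between mice. The controls were at 2.51, 3.30, 3.70, 2.14 and 5.62 CPM, and the mice after 2 days at 84.0, 31.1, 1.08, 2.63 and 2.59 CPM. After 3 days the levels were 82.4, 5.32, 82.1, 35.2 and 12.1 CPM. After 2 days there were 2 mice far above the controls and 3 within or below their range, whereas after 3 days 4 of 5 mice were above all controls.

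After 4 days Gpnmb was at 42.4, 47.3, 35.8, 2.00 and 1.80 CPM, and after 5 days at 27.5, 6.29, 2.18, 7.24 and 30.7 CPM. After 4 days 3 mice were thus high and the other 2 were below every control. The rise was 2.86 on the log2 scale after 2 days (standard error 0.87, edgeR adjusted p = 0.0202), 3.67 after 3 days (0.61, 0.000224), 2.91 after 4 days (0.69, 0.00335) and 2.09 after 5 days (0.53, 0.00429), with the standard error and the edgeR adjusted p in parentheses. Without control replicate 5 the 4 values were 3.12, 3.92, 3.17 and 2.36. The exact permutation test called none of them (adjusted p = 0.604, 0.0749, 0.302 and 0.183), the replicate block did not call the rise after 2 days, and the fit over all 7 groups did not call that after 5 days. The call after 2 days was lost without cold 2 days replicate 1, which gave 1.43, and without room temperature replicate 4, which gave 2.72. After 6 hours Gpnmb fell by 1.02 on the log2 scale (edgeR adjusted p = 0.0382), but removing single mice ended this call in 7 of 10 cases, and the value without control replicate 5 was −0.76. It was not called by DESeq2, without the count filter, or in a fit over all 7 groups.

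Lgals3 encodes galectin-3, a secreted and cytosolic lectin that marks damaged lysosomes and activated macrophages (chromosome 14, 47367751 to 47386160, plus strand). It was at 5.98, 4.27, 7.83, 3.95 and 10.5 CPM in the controls, at 265, 150, 14.9, 8.40 and 27.7 CPM after 2 days, and at 227, 20.3, 229, 138 and 69.1 CPM after 3 days. After 4 days it was at 149, 152, 122, 11.4 and 17.3 CPM and after 5 days at 124, 42.5, 12.4, 56.8 and 198 CPM. Every mouse from 3 to 5 days was above every control, although the lowest of them, at 11.4 CPM, was close to the highest control.

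The log2 fold changes of Lgals3 were 3.85 after 2 days (standard error 0.78), 4.41 after 3 days (0.52), 3.80 after 4 days (0.62) and 3.74 after 5 days (0.53), with edgeR adjusted p of at most 0.0015. Without control replicate 5 they were 4.11, 4.66, 4.06 and 4.00. It was the earliest of the set to be called higher, with a log2 fold change of 1.37 after 1 day (standard error 0.47, edgeR adjusted p = 0.0302), where the levels were 7.80, 12.3, 3.76, 24.5 and 37.6 CPM; it was 1.63 without control replicate 5. That rise rested on replicates 4 and 5 of the group: it was 0.86 without the latter, and removing single mice ended the call in 5 of 10 cases (room temperature replicates 1, 2 or 4, or cold 1 day replicates 4 or 5). DESeq2 and the fit over all 7 groups did not call it either. After 6 hours the log2 fold change was 0.61 (edgeR adjusted p = 0.0624), and it passed the threshold without control replicate 5 (0.87, adjusted p = 0.00838) and without cold 6 hours replicate 4 (0.75).

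Spp1 encodes osteopontin, a secreted matrix protein and integrin ligand that attracts macrophages (chromosome 5, 104435118 to 104441050, plus strand). The 5 controls had 1, 0, 0, 1 and 0 counts, the mice after 6 hours had 1 count and those after 1 day 2 counts in total, each in a single mouse. There were 75, 23, 0, 0 and 1 counts after 2 days, 42, 1, 98, 24 and 5 by day 3, 11, 10, 4, 1 and 0 by day 4 and 6, 0, 0, 0 and 20 by day 5. After 3 days the groups did not overlap in CPM (difference of 3.06 in log2 CPM with a prior count of 2, exact permutation p = 0.00794, adjusted p = 0.0496). The lowest of these mice had 1 count, as did 2 controls, so the separation rested on the TMM scaling: on library size only the groups overlapped and Spp1 was not called (exact permutation p = 0.0159, adjusted p = 0.0722). No fold change is given, because the controls had 2 counts in all. Gm42793, on the same strand, overlaps exons of Spp1 and shares 95 of 1040 stretches of 50 bases near its 3' end. It had 0 counts over all 35 libraries, and whether Spp1 reads were lost to this overlap was not tested.

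Mmp12, the macrophage elastase (chromosome 9, 7344381 to 7369499, plus strand), was at 0.579, 1.36, 0.870, 0.329 and 3.08 CPM in the controls and at 12.6, 3.28, 15.3, 7.70 and 1.03 CPM after 3 days. After 4 days it was at 9.57, 9.64, 8.64, 0.200 and 0.180 CPM, and after 5 days at 12.5, 2.82, 0.435, 3.33 and 9.16 CPM. After 4 days the 3 high mice and the 2 low mice were the same as for Gpnmb. Mmp12 rose by 2.69 on the log2 scale after 3 days (edgeR adjusted p = 0.00256, standard error 0.60) and by 2.15 after 5 days (0.64, edgeR adjusted p = 0.0123). The latter call was lost without cold 5 days replicate 1 (1.66), and without control replicate 5 the values were 3.37 and 2.84. The fit over all 7 groups did not call the rise after 5 days, and the exact permutation test called neither (adjusted p = 0.113 and 0.207).

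Atp6v0d2, a subunit of the lysosomal proton pump with a macrophage and osteoclast pattern (chromosome 4, 19876841 to 19922605, minus strand), had 1, 2, 0, 0 and 2 counts in the controls. It had 15, 10, 0, 0 and 0 counts after 2 days, 17, 2, 16, 11 and 4 by day 3, 8, 15, 12, 0 and 2 by day 4 and 7, 4, 0, 4 and 17 by day 5. After 3 days the groups did not overlap on the CPM scale (difference 1.89 in log2 CPM, exact permutation p = 0.00794, adjusted p = 0.0496). Here too the lowest mouse, with 2 counts, was next to controls with as many, and on library size only the groups overlapped (adjusted p = 0.0923 by the same exact test).

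Itgax encodes CD11c, an integrin subunit of dendritic cells and of macrophages in lipid-rich fat (chromosome 7, 128129547 to 128150657, plus strand). It had 2, 2, 2, 1 and 5 counts in the controls, 25, 5, 5, 2 and 5 after 2 days, 11, 6, 12, 16 and 2 after 3 days and 10, 9, 21, 3 and 6 after 4 days. The groups overlapped after each of these durations, and after 3 days the difference of 1.33 in log2 CPM did not pass the threshold (exact permutation p = 0.0159, adjusted p = 0.0749). Without control replicate 5 it was 1.49, and the groups no longer overlapped.

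Fabp5, a carrier of fatty acids in the cytosol (chromosome 3, 10012548 to 10016607, plus strand), differed from the genes above in being well counted in every mouse. It was at 39.4, 25.4, 27.9, 29.9 and 27.8 CPM in the controls, 45.5, 47.1, 61.2, 48.0 and 46.5 CPM after 3 days and 43.2, 61.4, 54.4, 65.0 and 49.98 CPM after 5 days. No mouse after 3, 4 or 5 days overlapped the controls. The rises were 0.61 after 2 days (standard error 0.18, edgeR adjusted p = 0.0181), 0.74 after 3 days (0.13, 0.000419), 0.66 after 4 days (0.12, 0.000434) and 0.86 after 5 days (0.14, 8.7e-05) on the log2 scale. The call after 2 days was lost without room temperature replicate 2 (0.55). Near the 3' end of Fabp5, 43 of 623 stretches of 50 bases are shared with the pseudogenes Gm14328 and Gm6166. These had 12 and 6 counts over all 35 libraries, and the split of reads from the shared stretches is uncertain. The exact permutation test called Fabp5 and Lgals3 after 3, 4 and 5 days alike (exact p = 0.00794 in each, adjusted p of at most 0.0496). On library size only it called Lgals3 after 3 days, neither gene after 4 days and Fabp5 after 5 days.

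Cd9, a tetraspanin of the cell surface (chromosome 6, 125460266 to 125494791, minus strand), was at 3.09, 3.49, 2.18, 3.12 and 3.27 CPM in the controls and at 2.10, 2.46, 3.38, 3.47 and 3.08 CPM after 3 days. The groups overlapped at all 6 durations, and the log2 fold changes ran from −0.41 after 5 days (standard error 0.29, edgeR adjusted p = 0.275) to 0.08 after 4 days (0.32, adjusted p = 0.857). At 4 to 29 counts per mouse, changes of this size could not be told from the spread between mice. An overlapping gene on the opposite strand, Gm26728, had 7 counts in all.

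**Figure D1:**
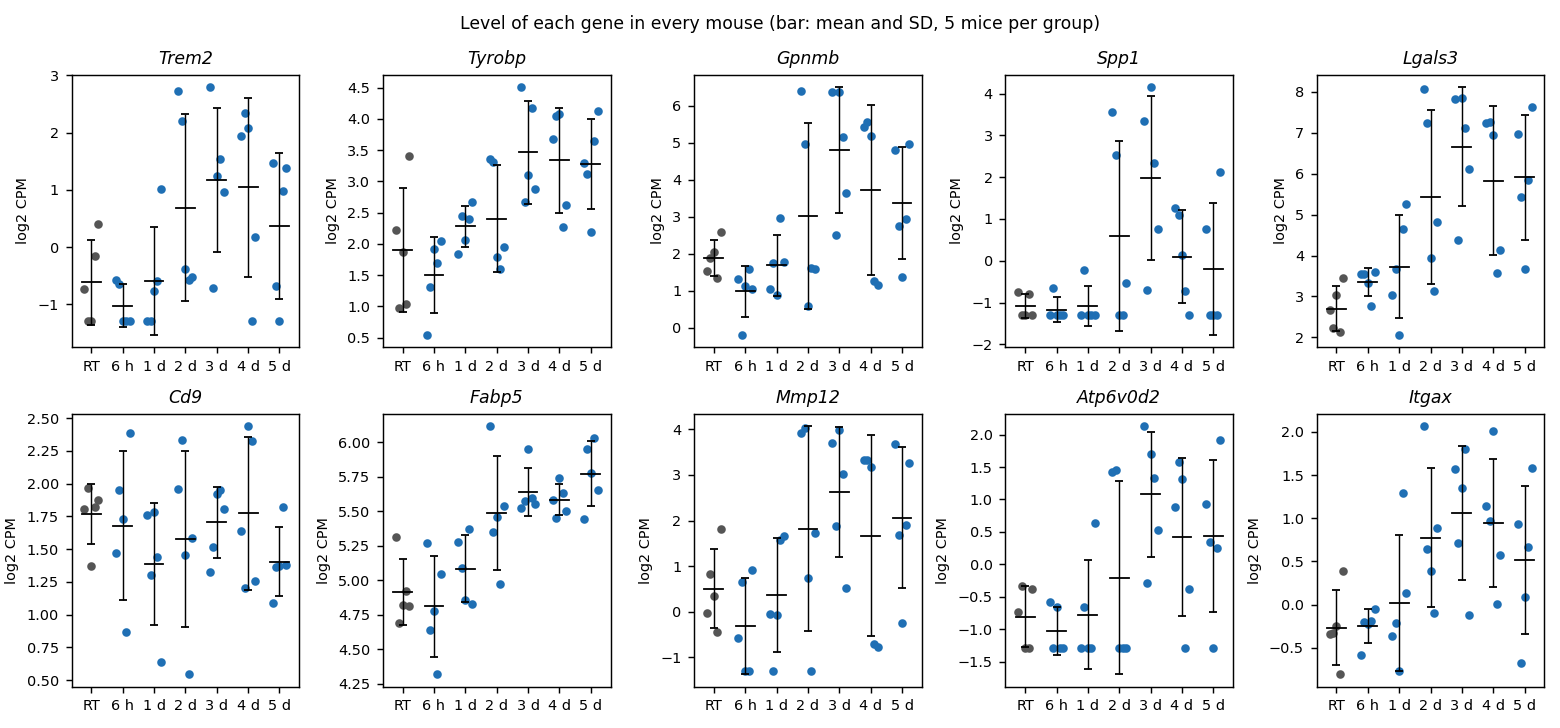
Level of each of the 10 genes in every mouse, as log2 CPM (y axis) by time at 6 °C (x axis; RT is room temperature, h hours and d days). Points are mice, horizontal bars the mean and vertical bars the SD of 5 mice, and the y range differs between panels; from 2 days on the points of Gpnmb, Lgals3, Mmp12 and Trem2 spread over several log2 units within a group, whereas those of Fabp5 and Cd9 do not.

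Across the set, edgeR called 0 genes higher and 1 lower (Gpnmb) of 5 tested after 6 hours, where 21.5% of all genes tested were called higher and 21.0% lower. It called 1 of 5 higher after 1 day (Lgals3, background 18.9%) and 3 of 5 after 2 days (Gpnmb, Lgals3 and Fabp5, background 16.4%). After 3 days 5 of 6 were higher (background 18.3%), after 4 days 4 of 5 (background 19.4%) and after 5 days 5 of 6 (background 20.2%), and none was lower. These counts are not shares of the whole set, since 4 or 5 of the 10 genes could not be tested in each comparison. Mmp12 entered after 3 and 5 days only because the cold mice lifted it past the filter; without it, 4 of 5 were higher at each. Nothing is read from these counts against the background. A fit over all 7 groups called 7, 9, 7 and 4 of the 10 genes higher at 2, 3, 4 and 5 days. The share of all genes called higher in that fit was 17.0%, 17.7%, 18.4% and 19.3%, and Cd9 was the only member not called after 3 days. Its filter let all 10 genes in. However, Trem2, Spp1, Mmp12, Atp6v0d2 and Itgax passed it only through mice with 2 to 5 days of cold, where they were high. Nothing is read from these counts either.

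By the exact permutation test over all genes, 4 members were called higher after 3 days (Spp1, Lgals3, Fabp5 and Atp6v0d2; background 8.01%), and 2 after 4 days and after 5 days (Lgals3 and Fabp5; background 8.98% and 8.91%). After 2 days the permutation test called none of the 17688 genes it was run on, and no member separated from the controls, while 7.23% of all genes lay above the controls in every mouse. Between 5 and 3 days of cold none of 7 members tested was called by edgeR, where 1.92% of all genes were called in either direction; 1 member, Gpnmb, had an unadjusted edgeR p below 0.05, and DESeq2 called none, whereas a fit without the count filter called Gpnmb, Spp1 and Lgals3 lower. The difference of Gpnmb in the main test was −1.58, with a standard error of 0.64 (edgeR adjusted p = 0.184). Spp1 was 2.18 lower on the log2 CPM scale after 5 than after 3 days (exact permutation p = 0.0873, adjusted p = 0.435).

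**Figure D2:**
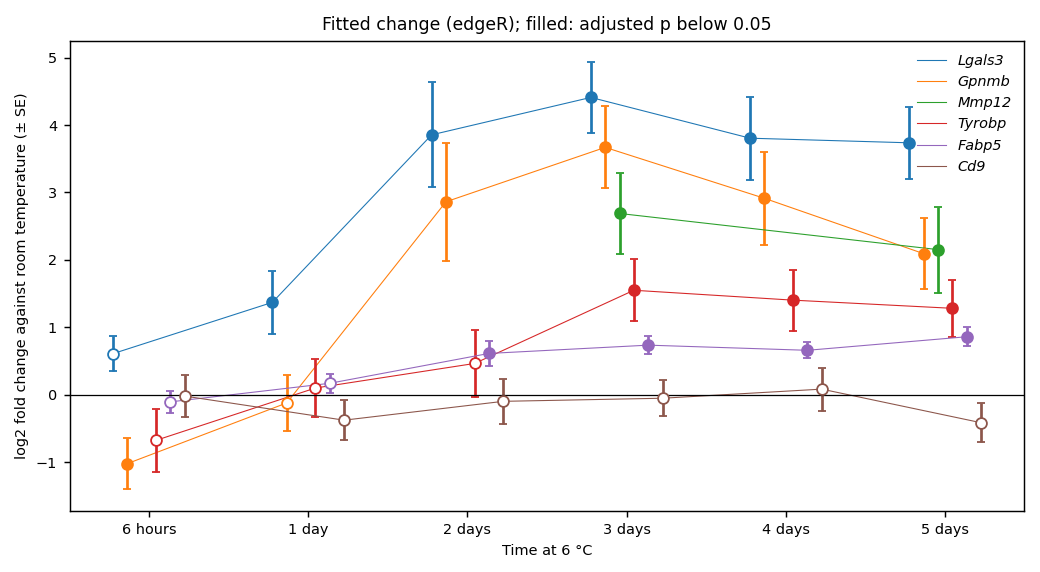
Fitted log2 fold change against room temperature (y axis, edgeR, bars ± standard error) by time at 6 °C (x axis) for the 6 genes that passed the count filter in at least 1 comparison with the controls. Filled points have an adjusted p below 0.05: Lgals3 peaks at 4.41 and Gpnmb at 3.67 after 3 days, Fabp5 stays between 0.61 and 0.86 from 2 days on, and the Cd9 points lie near 0.

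The high values fell in the same mice for most of the genes. There were 10 mice that made up most of the high values: replicates 1 and 2 after 2 days, 1, 3 and 4 after 3 days, 1, 2 and 3 after 4 days, and 1 and 5 after 5 days. Each of these was among the 10 highest of 35 mice for 7 to 10 of the 10 genes, and no other mouse was so for more than 2. Cold 2 days replicate 1 and cold 3 days replicate 4 were among them for all 10. In the 10 mice named, mitochondrial genes held 33.6% to 38.9% of all counts. The other mice with 2 to 5 days of cold were at 40.2% to 44.6%, except cold 3 days replicate 2 at 37.9%, and the controls at 38.4% to 41.3%. The relation of this share to the high values was not tested. In the same groups, the mice with the lowest summed CPM of the set were at 46.5 (2 days), 86.4 (3 days), 72.7 (4 days) and 76.4 (5 days), against 40.2 to 62.6 in the controls. Lgals3 and Fabp5 had the highest mean levels of the set and weigh most in these sums. In the mouse at 72.7, cold 4 days replicate 4, Fabp5 made 49.3 and Lgals3 11.4 CPM. Gpnmb was at 2.00 CPM in it, and Trem2 and Atp6v0d2 at 0.

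**Figure D3:**
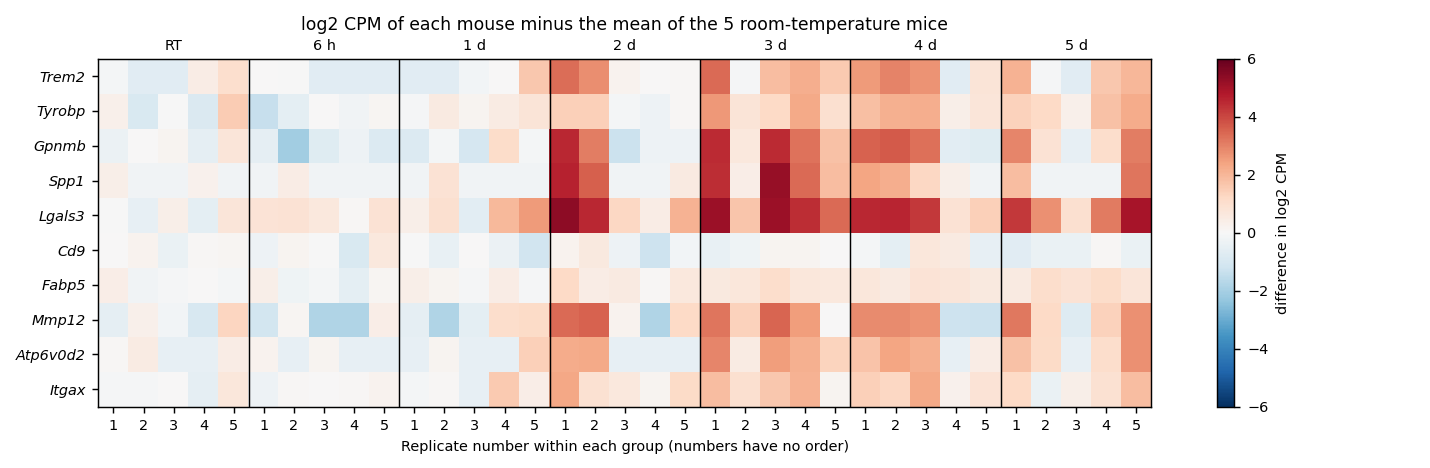
Log2 CPM of each gene (rows) in each of the 35 mice (columns, grouped by time at 6 °C), minus the mean of the 5 room-temperature mice; red is higher and blue lower. Largely the same 10 columns are red for Trem2, Gpnmb, Spp1, Lgals3, Mmp12 and Atp6v0d2, and the rows of Cd9 and Fabp5 show little of this pattern.

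To measure this, the group means were removed and the remaining deviations of log2 CPM were correlated over all 35 mice, for the 45 pairs of genes, with 100000 permutations within durations. After adjustment over the 45 pairs, 29 passed the threshold for Pearson's r. Gpnmb and Lgals3 were the most alike (r = 0.914, Spearman's rho = 0.900, permutation p = 1e-05, the smallest these permutations can give, adjusted p = 6.4e-05), and r was 0.898 without the 2 mice farthest from the median. The receptor and its adaptor, Trem2 and Tyrobp, gave r = 0.749 (rho 0.719, permutation p = 2e-05, adjusted p = 8.2e-05). The 28 pairs among the 8 genes other than Cd9 and Fabp5, a grouping made after seeing the values, had r from 0.569 to 0.914, with a median of 0.759.

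Fabp5 and Cd9 stood outside this group. The 8 pairs of Fabp5 with the genes other than Cd9 had a median r of 0.211 and a median rho of 0.0084, and the 9 pairs of Cd9 had a median r of 0.152. Scaling by library size only raised these medians to 0.451 and 0.291, and 34 of the 45 pairs then passed. Cd9 and Fabp5 passed with each other (r = 0.516, permutation p = 0.011, adjusted p = 0.016), but r fell to 0.332 without the 2 farthest mice, and rho was 0.399 (adjusted permutation p = 0.054), so that relation rested on those mice. Restricted to the 20 mice with 2 to 5 days of cold, the 28 pairs had a median r of 0.881. Restricted to the other 15 mice (controls, 6 hours and 1 day), an alternative chosen after seeing the data, their median was 0.269 and none of the 45 pairs passed the threshold, at levels where most of these genes had few counts.

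**Figure D4:**
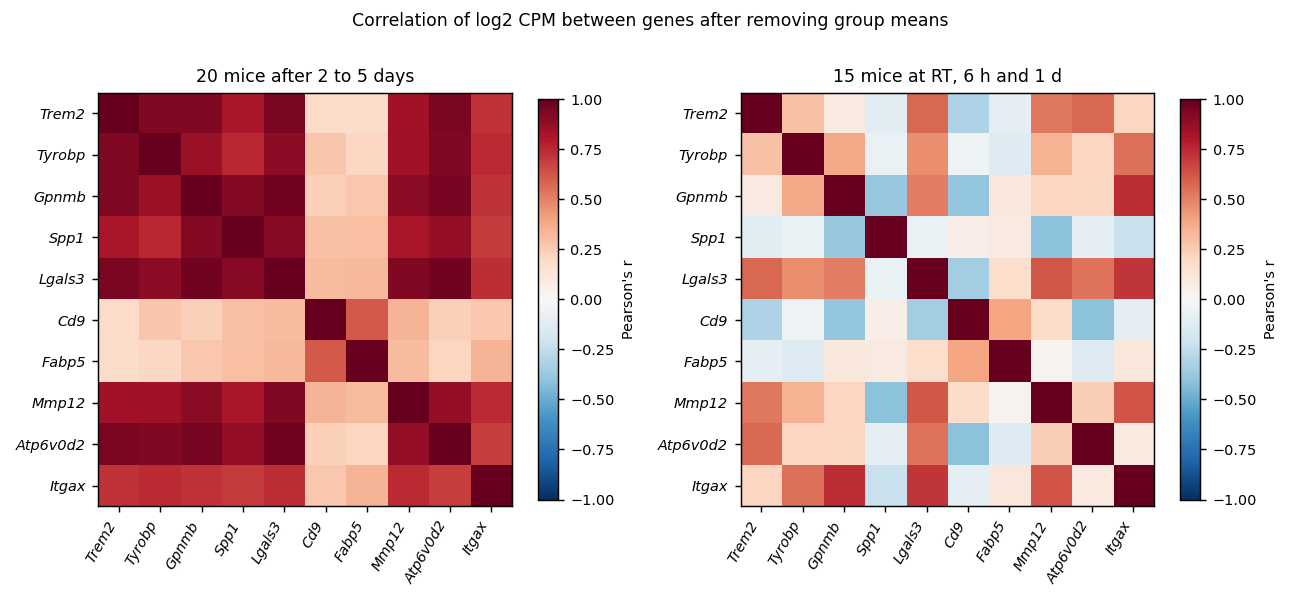
Pearson's r between each pair of the 10 genes after removing group means, for the 20 mice after 2 to 5 days of cold (left) and the 15 mice of the controls and of 6 hours and 1 day (right). In the left panel the 8 genes other than Cd9 and Fabp5 form a red block with a median r of 0.881, and in the right panel the same pairs have a median of 0.269.

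The proportions among the genes were not the same in every high mouse. Per 100 Gpnmb counts, Spp1 had 13.5 and 17.2 counts in the 2 high mice after 2 days and 11.9, 21.3 and 13.1 in the 3 high mice after 3 days, against 4.68, 3.64 and 1.93 in the 3 high mice after 4 days. After 5 days replicate 1 was at 4.69, and replicate 5, with 20 Spp1 counts to 154 Gpnmb counts, was within the range of the 2-day and 3-day mice. The values of the 4-day mice lay below those of every high mouse after 2 and 3 days; this is a description of mice picked for their high levels and was not tested. Lgals3 had 276 to 647 counts per 100 Gpnmb counts in the same 10 mice. Its values in the high mice after 5 days, 450 and 647, lay above those of every high mouse after 3 and 4 days. After 2 days the values were 316 and 484, and these differences were not tested.

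In all, 12225 genes, the set included, were ranked by the correlation of their deviations with the mean deviation of the 10 genes over the 35 mice. The 10 most alike outside the set were Lcp1 (r = 0.921), Ctss (0.907), Soat1 (0.903), Capg (0.898), Emp3 (0.897), Ccl9 (0.893), S100a6 (0.887), Plek (0.887), Cd44 (0.887) and Ccl6 (0.880). Lcp1, Plek and Capg encode proteins of the leukocyte cytoskeleton and its signalling, Ctss a lysosomal protease of antigen-presenting cells, and Soat1 the enzyme that esterifies cholesterol for storage. Ccl9 and Ccl6 are chemokines of mouse myeloid cells, and Cd44 is a receptor for osteopontin. Ccl6 went from 8.13 ± 3.86 CPM in the controls to 58.4 ± 17.7 CPM after 3 days (SD, n = 5), and Ccl9 from 2.97 ± 0.921 to 17.0 ± 9.19 CPM. Of the set itself, Lgals3 was closest to the mean (r = 0.952) and Cd9 farthest (0.356), each being part of it.

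The other genes of the pathways in which the set works were read from lists, here after 3 days, where the median log2 fold change of all 10827 genes tested was −0.01, 18.3% of them were called higher and 15.5% lower. Of 14 genes of TREM2 signalling and shedding, 7 were tested, 4 were higher and 1 lower. Syk, the kinase downstream of DAP12, rose by 1.18 on the log2 scale (standard error 0.43, edgeR adjusted p = 0.041), Ms4a6d by 2.27 and Ms4a7 by 1.47, both of a family of myeloid membrane proteins. Adam17, a protease that sheds TREM2, rose by 0.89. Apoe, a lipoprotein ligand of TREM2 that brown fat also makes, was the gene that fell, by 1.89 (standard error 0.15, edgeR adjusted p = 1.7e-07), from 1046 ± 175 to 280 ± 61.9 CPM.

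Of the lysosomal genes, 13 of 17 were higher and none lower, with a median of 0.69 on the log2 scale. Cd68, a lysosomal membrane protein of macrophages, rose by 2.91 (standard error 0.45), Ctss by 2.72 (0.45) and Ctsz, another cathepsin, by 2.24 (0.16). Within durations, r with the mean of the set was 0.854 for Cd68, 0.907 for Ctss and −0.064 for Ctsz. Of the proton pump subunits other than Atp6v0d2, 11 of 13 tested were higher and none lower, with a median of 0.67, led by Atp6v0b (1.07), Atp6v0a2 (0.99) and Atp6v0d1 (0.91). From mouse to mouse these leading subunits did not follow the set closely, with r of 0.174, −0.572 and −0.160 in that order. After 6 hours 10 of these 13 subunits were called higher, where 21.5% of all genes tested were. Atp6v0d2 then had 0 or 1 counts in every mouse, and 0 to 2 in the controls. It could not be tested after 6 hours, so its timing cannot be set against that of the other subunits. Of the MiT/TFE factors that drive lysosomal genes, 1 of 3 tested was higher, Tfeb (0.75, edgeR adjusted p = 0.013).

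Of the lipid handling genes, 6 of 12 tested were higher and 2 lower. Plin2, a lipid droplet coat protein, rose by 2.07 on the log2 scale, Soat1 by 1.83 (standard error 0.45) and Abcg1, a cholesterol exporter, by 1.65, and Abca1, another exporter, fell by 0.57. Of the receptors of osteopontin and GPNMB, 4 of 6 tested were higher and none lower, with Cd44 up by 1.91 (0.35), the proteoglycan Sdc4 from 41.7 ± 11.7 to 117 ± 22.3 CPM, and the integrin chain Itga4 by 1.16 (0.36). Within durations, r with the mean of the set was 0.116 for Plin2, 0.903 for Soat1, 0.268 for Abcg1 and 0.200 for Abca1. It was 0.887 for Cd44, −0.321 for Sdc4 and 0.647 for Itga4. Of the genes linked to Itgax, 2 were tested and only Itgam, a related integrin chain, was higher, by 1.43 (0.47).

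The relatives of the remaining genes moved in both directions. Of the other galectins, Lgals9 (1.99) rose, and Lgals1 fell by 0.61 and Lgals8 by 0.39. Lgals3bp, which encodes a binding protein of galectin-3 and not a galectin, rose by 2.21. Among matrix proteases and their inhibitors, 2 of 6 tested were higher, Mmp3 (0.95) and Mmp14 (0.64), and Timp3 fell by 0.69. Of the 4 tetraspanins tested besides Cd9, none was higher and Tspan4 fell by 1.10. Of the other fatty acid binding proteins, Fabp3 rose by 1.06, and Fabp4 was not called.

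Other macrophage and immune lists changed to different degrees. Within durations, r with the mean of the set ran from 0.271 (Mertk) to 0.854 (Cd68) for the general macrophage genes. For the resident macrophage genes that were ranked it ran from −0.344 (Cd163) to 0.470 (Lyve1). Summed over 14 general macrophage genes, the mice after 3 days were at 163 to 400 CPM, against 92.6 to 268 CPM in the controls, and 5 of 13 genes tested were higher, with a median of 0.67 on the log2 scale. The set itself summed to 86.4 to 424 CPM in those mice. Control replicate 5 and cold 5 days replicate 5 had general macrophage sums of 268 and 267 CPM, and sums over the set of 62.6 and 320 CPM. Lgals3 made 10.5 and 198 CPM of the sums over the set, and Fabp5 27.8 and 49.98 CPM. These are single mice picked after their values were seen, and the difference between them was not tested. Resident macrophage genes (Lyve1 up by 1.95, Cbr2 by 1.29 and Pf4 by 1.15) were higher for 5 of 8 tested after 3 days, with sums of 115 to 182 CPM against 65.2 to 114 CPM in the controls.

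Interferon-type macrophage genes were higher for 7 of 7 tested after 3 days, led by Isg15 (3.65), Irf7 (3.55) and Rsad2 (3.52), with a median of 3.38. Their sums were 636, 147, 575, 672 and 95.1 CPM in the 5 mice after 3 days, with the 3 mice that were high for the set also the highest here. After 2 days, the 2 mice with the highest sums of the set, 470 and 265 CPM, had interferon-type sums of 111 and 101 CPM. For the interferon-type genes that were ranked, r with the mean of the set within durations ran from 0.538 (Ifi209) to 0.780 (Slfn2). Of the monocyte genes 3 of 4 tested were higher (Plac8 2.92, Vcan 1.61 and Ccr2 1.31), and of the dendritic genes 1 of 4 (Irf8 1.39). Neutrophil and T and NK genes summed to at most 5.89 and 5.56 CPM in any mouse, and none of them had enough counts to be tested after 3 days. The part of cell number in the values of the set was not tested.

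**Figure D5:**
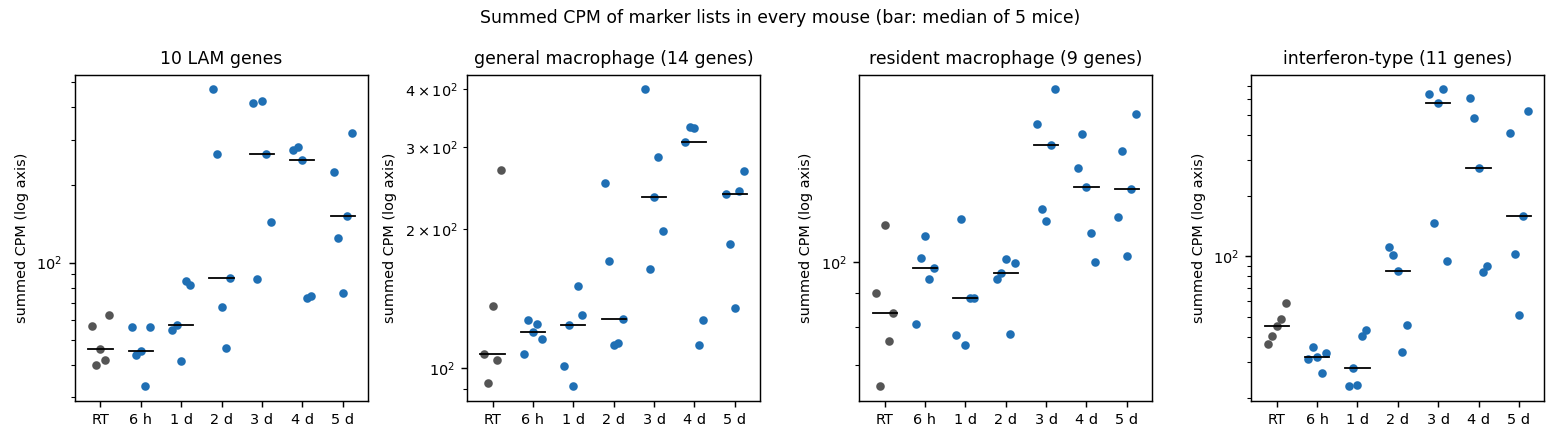
Summed CPM (y axis, log scale) of the 10 genes and of the general, resident and interferon-type macrophage lists in each mouse, by time at 6 °C; bars are medians of 5 mice. The set reaches 470 CPM in 1 mouse after 2 days, when the interferon-type list is at most 111 CPM, and both are high after 3 days. In the mouse at 470 CPM, Lgals3 made 265, Gpnmb 84.0 and Fabp5 68.9 CPM. The high control in the general list is room temperature replicate 5.

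The libraries carried the markers of brown fat, with Ucp1, the uncoupling protein of heat production, at 1915 CPM in the controls and 5529 CPM after 3 days. Ucp1 rose by 1.54 and Elovl3 by 6.22 on the log2 scale and Adipoq fell by 1.29, the 3 of 6 brown adipocyte genes that were called. Of the other cell types, 3 of 5 endothelial, 1 of 5 stromal (Ly6a) and 1 of 5 erythroid genes were higher, 1 of 3 Schwann genes tested was lower (Mbp), and the 1 B cell gene tested was not called. Skeletal muscle genes ranged from 2.31 to 918 CPM between mice, and none of 5 was called after 3 days. Cold 5 days was the one duration at which muscle genes were called, 3 of 5 lower. Markers of proliferating cells were higher for 3 of 3 tested after 3 days (Mki67 3.25, Top2a 2.42 and Cdk1 1.24), with sums of 21.5 to 44.5 CPM against 5.66 to 8.35 CPM in the controls. After 2 days, the 2 mice that were high for the set had higher proliferation sums than the other 3, at least 34.5 CPM against 3.68 to 10.1 CPM. Within durations, r with the mean of the set ran from 0.567 (Cdk1) to 0.836 (Top2a) for proliferation genes. It ran from −0.0015 (Dcn) to 0.790 (Ly6a) for stromal genes and from −0.746 (Adipoq) to −0.291 (Elovl3) for brown adipocyte genes. The shared variation was thus not confined to macrophage genes.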

How the data were processed

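Brown fat of 35 mice was profiled by 3'-end RNA sequencing (QuantSeq 3' FWD). The authors aligned reads to GRCm38 with STAR 2.6.1d and counted them per gene with HTSeq 0.11.2, and deposited raw counts; the strand setting of the counting and any batches are not given in the sources used here. The members and gene lists were chosen with earlier results of these data known. Groups and replicate numbers came from the sample labels.

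Counts were analysed with edgeR 4.0.16 in R 4.3.3: TMM scaling, filterByExpr, a quasi-likelihood fit for each duration with the 5 controls, and Benjamini-Hochberg adjustment over all genes tested. Standard errors are the log2 fold change divided by the square root of F. Exact permutation tests used log2 CPM with a prior count of 2 on genes with at least 10 counts in the 2 groups. Python 3.11.15 and scipy 1.17.1 were used for permutations. Alternatives were DESeq2 1.42.0, RLE factors, library size only, no filter, all 7 groups in one fit, a replicate block, removal of mitochondrial genes and Gm42418, and leaving out each mouse. The main fit was tested on simulated counts with the same dispersion for every gene and an equal shift in all mice of a group. That test does not cover genes such as Gpnmb, which were high in some mice of a group and low in others. Genes outside the set were named by a rule: the 10 most alike, and the largest called changes of each list after 3 days; Syk, Adam17, Abca1, Lgals8, Fabp4 and Adgre1 were named after their values were seen. Mitochondrial genes held 40.2% and Gm42418 11.6% of all counts. The labels do not say that mice were from separate litters, and p-values set a difference between groups against the spread between these mice.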

Additional observations from a re-analysis of the deposited data

Results flagged for a closer look

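Over the 10 genes and 7 groups, 70 groups of 5 mice were checked for a mouse standing apart, by its gap to the nearest mouse divided by the range of the group, against a critical value of 0.71. Chance alone marks about 1 in 20 groups. There were 4 such mice. Cold 3 days replicate 3 was the highest for Fabp5, at 61.2 CPM and 344 counts (ratio 0.824). Room temperature replicate 3 was the lowest for Cd9, at 2.18 CPM and 10 counts (ratio 0.734). For Spp1, cold 6 hours replicate 2 (0.231 CPM, 1 count) and cold 1 day replicate 2 (0.456 CPM, 2 counts) each had a ratio of 1, since the other 4 mice of the group had no count.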

How the results depend on the processing

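The count of genes of the set called higher after 2, 3, 4 and 5 days was 3, 5, 4 and 5. It was 5, 9, 7 and 6 with DESeq2 (6.70% to 8.37% of all genes called higher), 6, 9, 9 and 7 without the count filter (6.99% to 9.10%), and 7, 9, 7 and 4 with all 7 groups in one fit, and 2, 5, 4 and 4 on library size only. Trem2, Spp1, Mmp12, Atp6v0d2 and Itgax entered the fit over all 7 groups only through mice with 2 to 5 days of cold. After 6 hours, 1 gene was higher without the filter and with the replicate block, and 0 were lower with DESeq2, without the filter, with all 7 groups and with the block. After 1 day, 0 were higher with DESeq2, library size only and all 7 groups. Without the filter, 3 genes (Gpnmb, Spp1 and Lgals3) were lower after 5 than after 3 days. By the exact permutation test on library sizes alone, 1 (Lgals3), 0 and 1 (Fabp5) genes were called after 3, 4 and 5 days; this scaling moved the median of all genes by −0.15 to −0.25 on the log2 scale. Of the 45 pairs, 29 passed; 34 did on library size only, 28 without the 2 farthest mice, and 0 in the 15 early mice, an alternative chosen after seeing the data. The causes were not tested.

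Leaving out each mouse, the counts ran from 0 to 1 after 6 hours (higher and lower alike) and 1 day, 2 to 4 after 2 days, 4 to 5 after 3 days, 3 to 5 after 4 days, 4 to 5 after 5 days and 0 to 0 between 5 and 3 days. The exact permutation test without room temperature replicate 5, also chosen after seeing the data, called 0 genes of the set and 0 of all genes after 3, 4 and 5 days, since its smallest adjusted p was 0.067, 0.0539 and 0.0581. Signs turned for values that were not called: Cd9 after 6 hours (−0.26 to 0.16, and 0.0060 with DESeq2), 2 days (−0.32 to 0.10), 3 days (−0.14 to 0.045) and 4 days (−0.14 to 0.25, and −0.058 on library size), Fabp5 after 6 hours (−0.22 to 0.013), Tyrobp after 1 day (−0.11 to 0.76, and −0.14 on library size) and between 5 and 3 days (−0.54 to 0.056), and Gpnmb after 1 day (−0.63 to 0.14). Fabp5 after 1 day was −0.043 on library size.

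Mice with the same replicate number did not deviate together (correlations −0.348 to 0.204, with 4 of 35 comparisons closest to their own number), so the numbers were not taken to pair mice. With the replicate block, 2, 5, 4 and 5 genes were higher after 2 to 5 days, and Gpnmb after 2 days was 1.80 (edgeR adjusted p = 0.127). Low counts limit Trem2, Spp1, Atp6v0d2 and Itgax most, each at 8 counts or fewer in every control and early mouse.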
